A study of Mus musculus with 12 samples.

Results

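Cassette exons of over 50 and under 300 nt that stood at mid inclusion in control cells were followed through siRNA knockdown of the splicing factor Puf60 and induction of a Puf60 cDNA. The members were chosen from the deposited vast-tools table as exon events of that length with at least 10 inclusion and exclusion reads in each of 12 libraries and a mean percent spliced in (PSI) of 20 to 80 in the 4 control libraries. Of 401633 events in the table, 145571 were exons of this length, 89876 of these had the reads in every library, and 1859, in 1406 genes, had the control PSI. Without the depth requirement in the treated libraries 1959 exons qualified, so 100 were left out for low reads there. PSI is the share of reads that include the exon, in percent, and a difference of PSI is given in points.

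The cells were N2A, a mouse neuroblastoma line, as stable Flp-In lines with a doxycycline-inducible, siRNA-resistant, 3xFlag Puf60 cDNA. The pEx5 line carried the cDNA with exon 5 of Puf60 and the mEx5 line the cDNA without it. Per line there was an induction group (Puf60 siRNA and doxycycline at 2 µg/ml for 24 h), a knockdown group (Puf60 siRNA alone) and a control group (non-targeting siRNA), all at 15 nM siRNA and harvested at 48 h, with 2 libraries, A and B, in each of the 6 groups. No group had doxycycline with the control siRNA, so induction holds the drug and the cDNA together, and reads of cDNA and endogenous Puf60 were not separated. The labels call the libraries biological duplicates and do not say whether they came from separate transfections, and p-values here rest on the spread between such duplicates alone, which may be technical.

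An exon at mid inclusion is skipped in part of the transcripts of its gene and kept in the rest, which leaves room for both gain and loss. Whether it is kept depends on how readily the spliceosome pairs the splice sites at its ends. The Puf60 protein binds RNA and resembles the large subunit of U2AF, which binds the pyrimidine-rich tract before the 3′ splice site and helps the U2 snRNP to join the branch point.

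The exons that carry most of the results below are shown first, as read from GENCODE transcripts of GRCm38 (mm10), to which 1615 of the 1859 exons were matched by gene, exon length and flanking intron lengths. A first set is exons whose inclusion fell strongly on knockdown; that of Mff shares its neighbouring exons with a 159 nt member that also fell. Each is coding, and capitals mark the first and last 3 bases, which lie at the splice sites.
Smpd4 87 nt exon (chr16:17635482-17635568, plus strand): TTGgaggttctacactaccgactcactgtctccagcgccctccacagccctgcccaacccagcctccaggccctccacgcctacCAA
Snap91 84 nt exon (chr9:86774197-86774280, minus strand): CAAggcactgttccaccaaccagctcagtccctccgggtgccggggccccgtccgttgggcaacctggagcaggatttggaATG
Eif4h 60 nt exon (chr5:134624441-134624500, minus strand): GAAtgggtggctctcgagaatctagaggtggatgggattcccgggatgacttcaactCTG
Mff 60 nt exon (chr1:82747083-82747142, plus strand): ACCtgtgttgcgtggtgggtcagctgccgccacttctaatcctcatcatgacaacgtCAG

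Other members come in pairs that lie between the same neighbouring exons. The pair that moved most on knockdown is in Ogdh, where the exons differ in length, and capitals again mark the first and last 3 bases.
Ogdh 91 nt exon, 5′ of the pair (chr11:6316765-6316855, plus strand): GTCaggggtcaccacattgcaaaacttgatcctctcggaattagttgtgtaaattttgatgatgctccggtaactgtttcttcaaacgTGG
Ogdh 103 nt exon, 3′ of the pair (chr11:6316978-6317080, plus strand): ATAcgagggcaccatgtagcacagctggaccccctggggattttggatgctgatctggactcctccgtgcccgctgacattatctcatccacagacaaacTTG

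In the following pairs both exons have the same length, and capitals mark the bases that differ between them at the same position, counted from the 5′ end. They share 62.5% of positions in Mapk8, 59.2% in P4ha1, 59.0% in Acsl6, 48.1% in Ate1, 68.3% in Dnm2 and 68.9% in Galnt7.
Mapk8 72 nt exon, 5′ of the pair (chr14:33390673-33390744, minus strand): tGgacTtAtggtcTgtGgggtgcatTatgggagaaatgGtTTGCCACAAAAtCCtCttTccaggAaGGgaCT
Mapk8 72 nt exon, 3′ of the pair (chr14:33390242-33390313, minus strand): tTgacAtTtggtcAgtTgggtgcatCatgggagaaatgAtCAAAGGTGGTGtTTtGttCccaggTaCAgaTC
P4ha1 71 nt exon, 5′ of the pair (chr10:59354340-59354410, plus strand): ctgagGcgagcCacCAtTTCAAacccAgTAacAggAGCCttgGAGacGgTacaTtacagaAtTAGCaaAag
P4ha1 71 nt exon, 3′ of the pair (chr10:59355350-59355420, plus strand): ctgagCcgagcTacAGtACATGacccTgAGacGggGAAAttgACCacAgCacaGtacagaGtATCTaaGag
Acsl6 78 nt exon, 5′ of the pair (chr11:54336936-54337013, plus strand): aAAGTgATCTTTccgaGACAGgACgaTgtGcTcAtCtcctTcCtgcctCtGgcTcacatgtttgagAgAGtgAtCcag
Acsl6 78 nt exon, 3′ of the pair (chr11:54337071-54337148, plus strand): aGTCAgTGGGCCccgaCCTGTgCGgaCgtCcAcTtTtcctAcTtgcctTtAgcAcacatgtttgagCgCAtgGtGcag
Ate1 129 nt exon, 5′ of the pair (chr7:130504694-130504822, minus strand): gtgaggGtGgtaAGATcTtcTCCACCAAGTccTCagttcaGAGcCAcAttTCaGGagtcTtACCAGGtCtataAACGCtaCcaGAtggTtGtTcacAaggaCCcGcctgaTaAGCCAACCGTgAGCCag
Ate1 129 nt exon, 3′ of the pair (chr7:130503722-130503850, minus strand): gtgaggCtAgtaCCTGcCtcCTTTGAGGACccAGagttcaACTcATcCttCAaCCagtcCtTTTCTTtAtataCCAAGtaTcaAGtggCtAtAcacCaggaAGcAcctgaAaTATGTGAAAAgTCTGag
Dnm2 139 nt exon, 5′ of the pair (chr9:21478899-21479037, plus strand): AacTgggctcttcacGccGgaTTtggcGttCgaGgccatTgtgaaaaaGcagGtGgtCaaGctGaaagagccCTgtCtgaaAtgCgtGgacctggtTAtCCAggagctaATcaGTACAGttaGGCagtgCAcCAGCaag
Dnm2 139 nt exon, 3′ of the pair (chr9:21480407-21480545, plus strand): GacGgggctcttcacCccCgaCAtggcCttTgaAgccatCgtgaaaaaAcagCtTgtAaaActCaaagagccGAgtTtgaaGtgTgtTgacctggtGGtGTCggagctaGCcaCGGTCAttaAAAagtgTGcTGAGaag
Galnt7 183 nt exon, 5′ of the pair (chr8:57542835-57543017, minus strand): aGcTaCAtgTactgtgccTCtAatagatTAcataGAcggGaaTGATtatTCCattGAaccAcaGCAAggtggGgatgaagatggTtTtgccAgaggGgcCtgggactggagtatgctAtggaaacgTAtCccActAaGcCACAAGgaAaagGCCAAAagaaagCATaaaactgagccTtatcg
Galnt7 183 nt exon, 3′ of the pair (chr8:57542512-57542694, minus strand): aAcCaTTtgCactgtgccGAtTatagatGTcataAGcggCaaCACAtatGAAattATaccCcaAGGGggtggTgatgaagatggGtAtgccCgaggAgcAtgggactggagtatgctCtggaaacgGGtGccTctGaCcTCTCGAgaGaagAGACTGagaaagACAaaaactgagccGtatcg

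Reads behind the members were ample in most libraries. The lowest library of a member had a median of 113 reads (range 10 to 10765), and the median member had 131 to 226 reads across the 12 libraries. Summed over all exon events, where a read can count at several exons, libraries held 41686746 to 75094535 reads. Duplicates of a group differed by a median of 3.5 to 4.8 points over the members, and by 12.9 to 17.7 points at the 90th percentile. In the authors' deposited table Puf60 stood at 246.09, 22.05 and 107.44 RPKM in induction, knockdown and control of the pEx5 line, and at 202.07, 25.16 and 103.47 RPKM in the mEx5 line. The label of the cells was checked on marker genes in the same table: of 14 neuronal and noradrenergic markers 13 were at 1 RPKM or more in some group, with a summed level of 1163.57 to 1504.27 RPKM, against sums of 4.88 to 6.64 for 6 glial, 0.44 to 3.83 for 6 fibroblast, 0.43 to 0.82 for 6 blood and 0.57 to 1.15 for 5 epithelial markers. Mog, Olig2, Col3a1, Cd3e, Krt18 and Krt5 were among the markers listed at 0 in all 6 groups.

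Puf60 knockdown moved 821 of the 1859 exons, and most of them were skipped more. With both lines fitted together, 630 exons fell and 191 rose (weighted limma on the logit of inclusion, Benjamini-Hochberg adjusted p under 0.05 over all events tested, and a difference of at least 10 points). These are 33.9% and 10.3% of the exons, against a background in this comparison of 12.3% of the 22770 events tested called lower and 5.21% called higher. The events tested also hold microexons, alternative splice sites and 8863 introns. Of the introns 6.79% were called higher and 1.99% lower. Events that start near 5 or 95 have less room for a 10-point change in 1 direction than the exons chosen. Among tested exons of the same length at a control PSI of over 80 to 95, 24.6% were called lower and 1.1% higher. At over 5 to under 20 these shares were 4.0% and 6.0%. The median change was -5.70 points over the exons and -0.47 points over all events tested. The control libraries chose the exons and are one side of this comparison, so it is not independent of the choice. Exons of 1 gene are not separate observations: 315 genes held 2 or more of them, up to 8 in Ttc3, Snap91 and 2610020H08Rik, and with 1 exon per gene 447 of 1406 fell and 151 rose. Losses were also the larger changes, with 319 exons lower by at least 20 points and 128 by at least 30 points, against 67 and 20 exons higher by as much. Of the exons called lower, 41 fell to a mean PSI under 10 in both lines, and 11 of those called higher rose to over 90 in both.

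The Smpd4 exon showed the pattern at full depth. Smpd4 encodes a neutral sphingomyelinase, and its 87 nt exon had a PSI of 5.2 and 4.2 in pEx5 knockdown libraries, against 63.3 and 68.5 in pEx5 controls. The mEx5 values were 12 and 5.0 in knockdown, against 62.9 and 63.6 in controls. The mean change was -58.0 points, with a logit change of -3.23 ± 0.19 (SE; limma adjusted p = 1.55e-08), and the knockdown and control libraries lay far apart in both lines. Libraries held 285 to 609 reads at this exon.

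Snap91, which encodes the clathrin assembly protein AP180, lost an 84 nt exon. Its PSI was 16.4 and 20.5 in pEx5 knockdown libraries, against 69.5 and 65.4 in controls, and 24.5 and 19.1 in mEx5 knockdown libraries, against 69.6 and 73.6 in controls (-49.4 points; limma adjusted p = 6.17e-09). The groups lay far apart in both lines. Mtap4, encoding the microtubule-associated protein MAP4, had a 248 nt exon (chr9:110068693-110068940 in mm10, as for the positions that follow) at 22.8 and 18.6 in pEx5 knockdown libraries, against 74.0 and 71.4 in controls, and at 18.5 and 21.4 in mEx5 knockdown libraries, against 77.7 and 80.0 in controls (-55.4 points; limma adjusted p = 4.98e-10).

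The other losses named by size were, by the naming rule, without overlap between knockdown and control libraries in each line. A 102 nt exon of 5730419I09Rik (chr6:143019328-143019429) changed by -60.9 points, the largest change among exons with at least 20 reads in every library. A 90 nt exon of Fnip2, encoding a folliculin partner, changed by -56.7 points, a 56 nt exon of Dclre1c, which encodes the Artemis nuclease of end joining, by -52.8 points, and a 90 nt exon of Ubn1, encoding a histone chaperone subunit, by -52.8 points. A 54 nt exon of the ubiquitin ligase gene Ttc3 changed by -52.1 points and a 55 nt exon of 8030474K03Rik by -50.1 points. The limma adjusted p of these 6 exons ran from 2.19e-09 (Ttc3) to 3.27e-05 (Dclre1c).

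Gains were fewer, and several lay between short introns. Kctd17, encoding an adaptor of a cullin ubiquitin ligase, had a 63 nt exon at 65.5 and 62.3 in pEx5 knockdown libraries, against 22.6 and 22.6 in controls, and at 54.7 and 53.9 in mEx5 knockdown libraries, against 22.5 and 23.0 in controls (36.5 points; limma adjusted p = 5.92e-09). Control libraries agreed to within a point across both lines at 405 to 1091 reads. Rpusd1, encoding a pseudouridine synthase family protein, had a 140 nt exon of its 5′ UTR (chr17:25728252-25728391) at 67.2 and 74.9 in pEx5 knockdown libraries, against 28.2 and 33.8 in controls, and at 66.5 and 69.7 in mEx5 knockdown libraries, against 29.98 and 31.7 in controls (38.7 points; limma adjusted p = 9.87e-08). Uspl1, encoding a SUMO protease, had a 127 nt exon (chr5:149187708-149187834) at 86.9 and 84.4 in pEx5 knockdown libraries, against 43.6 and 40.8 in controls, and at 85.6 and 85.5 in mEx5 knockdown libraries, against 54.5 and 51.8 in controls (37.9 points; limma adjusted p = 5.83e-10).

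Of the other named gains, a 111 nt exon of the histone deacetylase gene Hdac7 changed by 41.4 points and a 115 nt exon of Obsl1, encoding an obscurin-like cytoskeletal adaptor, by 35.8 points. A 147 nt exon of Zfr2 and a 168 nt exon of Sspo changed by 38 and 36.8 points, at no more than 52 and 53 reads in any library. Ccdc136 had 222 nt and 159 nt exons that changed by 35 and 34.0 points. In Hdac7 the duplicates were wide apart, at 76.2 and 48.7 in mEx5 knockdown libraries, against 35.6 and 16.5 in mEx5 controls.

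**Figure D1:**
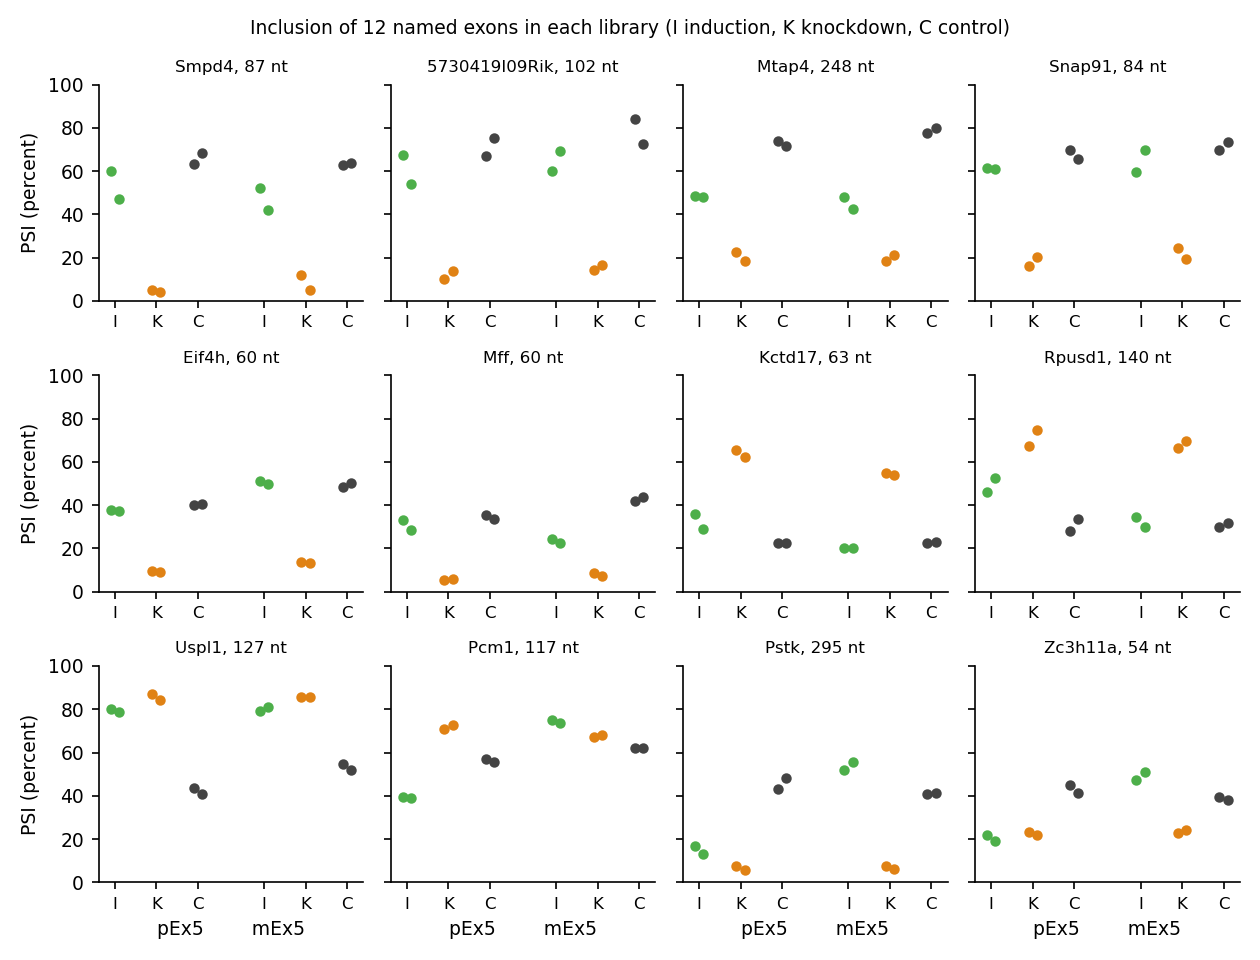
PSI in percent (vertical axis) of 12 named exons in each library, with 1 point per library and the groups induction (I), knockdown (K) and control (C) of the pEx5 line at the left and the mEx5 line at the right of each panel. In the Smpd4 panel the knockdown points lie at 4.2 to 12 and the control points at 62.9 to 68.5, and in the Kctd17 panel the knockdown points lie at 53.9 to 65.5 and the control points at 22.5 to 23.0.

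The largest opposed pair was in Ogdh, which encodes the E1 subunit of the 2-oxoglutarate dehydrogenase complex of the citric acid cycle. The 91 nt exon had a PSI of 85.8 and 87.8 in pEx5 knockdown libraries, against 35.04 and 37.1 in controls, and 82.2 and 85.1 in mEx5 knockdown libraries, against 31.4 and 34.5 in controls. The 103 nt exon next to it had 12.3 and 10.5 in pEx5 knockdown libraries, against 62.9 and 60.8 in controls, and 15.1 and 15.5 in mEx5 knockdown libraries, against 68.8 and 64.5 in controls. The exons thus moved by nearly the same amount in opposite directions, by 50.7 and -50.9 points (limma adjusted p = 7.96e-11 and 5.83e-11), at 1368 to 3856 reads.

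Pairs of this kind were then collected by structure: same neighbouring exons, no overlap, and control PSI that sum to 90 to 110. There were 34 such pairs in 28 genes, a rule written after values had been seen. In 10 pairs the exons were called in opposite directions on knockdown, in 11 in the same direction, in 6 only 1 exon was called and in 7 neither. Over all 175 pairs with the same neighbours and no overlap, whatever their control PSI, 14 were called in opposite directions and 85 in the same direction. These are all combinations of exons between the same neighbours, so genes with many such exons, among them Ccdc136, Snap91 and Rad52, count many times. Ccdc136, Alg6 and 1700019N12Rik were among the genes of pairs called in the same direction, and Ccdc136 and Alg6 gave more than 1 of the 11. The 5′ exon was the one lost in 5 of the 10 opposed pairs and the 3′ exon in the other 5, and 2 of the 10 share an exon of Epb4.1l2. The exons of a pair share their neighbouring exons, so their PSI may rest in part on the same junction reads and are not independent values.

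In 11 of the 34 pairs both exons had the same length, and 6 of these were opposed. In Mapk8, which encodes the kinase JNK1, the 5′ exon fell to 33.3 and 28.6 in pEx5 knockdown libraries, against 49.9 and 48.7 in controls, and to 38.4 and 35 in mEx5 knockdown libraries, against 59.8 and 64.8 in controls (-22.0 points; limma adjusted p = 1.94e-05), and the 3′ exon rose by 19.0 points. Acsl6, encoding an acyl-CoA synthetase, and Galnt7, encoding a glycosyltransferase, also lost the 5′ exon, by -33.8 and -17.7 points. The 3′ exon was instead lost in P4ha1, encoding the catalytic subunit of prolyl 4-hydroxylase (-24.0 points), in Ate1, encoding arginyltransferase (-16.6 points), and in Dnm2, encoding dynamin 2 (-18.8 points). Both positions thus occurred among the exons that fell. Tpm1, encoding tropomyosin 1, lost its 3′ exon by -18.3 points (limma adjusted p = 1.6e-06), while the 5′ exon changed by 6.8 points, under the size needed for a call.

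**Figure D2:**
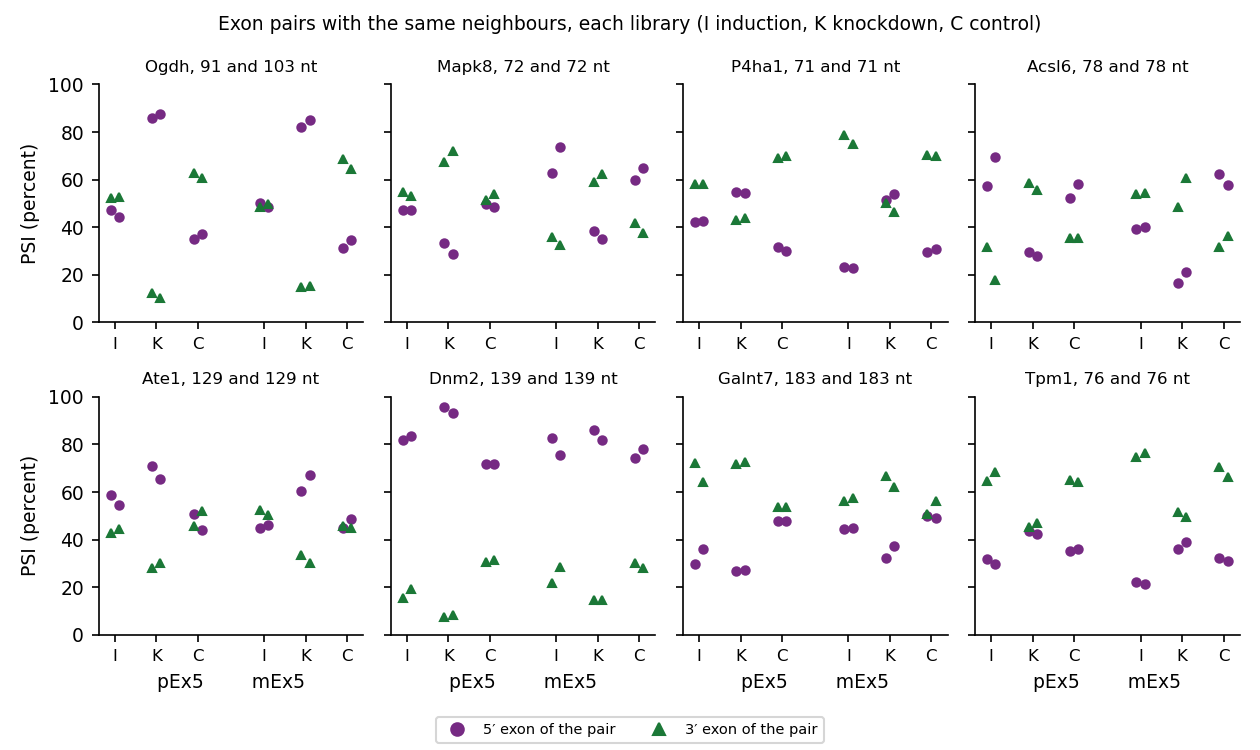
PSI in percent (vertical axis) of both exons of 8 pairs in each library, with circles for the 5′ exon, triangles for the 3′ exon, 1 point per library, and the groups induction (I), knockdown (K) and control (C) of the pEx5 line at the left and the mEx5 line at the right of each panel. In the Ogdh panel the 5′ exon lies at 82.2 to 87.8 in knockdown libraries and 31.4 to 37.1 in control libraries.

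Cacna1c, which encodes the pore subunit of an L-type calcium channel, held 4 of the named exons. A 75 nt exon changed by -34.8 points and a 60 nt exon by -33.2 points (limma adjusted p = 8.45e-06 and 0.000201). Between 1 further pair of neighbours, a 78 nt exon fell by a change of -36.3 points as an 84 nt exon rose by 33.2 points (limma adjusted p = 0.000389 and 1.13e-05). The 84 nt exon was at 86.4 and 87.7 in pEx5 knockdown libraries, against 56.3 and 62.4 in controls, and at 87.4 and 88.6 in mEx5 knockdown libraries, against 52.5 and 46.3 in controls. These exons rest on 34 to 174 reads a library.

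Gene lists describe which kinds of genes the exons belong to. Among RNA processing factors, 17 of 42 exons fell and 4 rose (median change -7.3 points), with the background as above. The 60 nt exon of Eif4h, which encodes a cofactor of the eIF4A helicase, was the deepest: 9.5 and 9.2 in pEx5 knockdown libraries, against 40.02 and 40.5 in controls, and 13.7 and 13.2 in mEx5 knockdown libraries, against 48.3 and 50.1 in controls (-33.3 points; limma adjusted p = 7.96e-11). Duplicates differed there by under 2 points. Exons of the splicing regulator gene Rbfox1 (81 nt), of Prpf39, encoding a U1 snRNP-associated protein (100 nt), and of Pum2, encoding a Pumilio translational repressor (237 nt), changed by -24.0, -23.6 and -22.0 points. Exon 5 of Puf60 itself changed by -15.8 points on knockdown, to 23.2 and 19.8 in pEx5 knockdown libraries, against 39.1 and 35.8 in controls.

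Exons of cytoskeletal and vesicle traffic genes fell in 24 of 50 cases and rose in 6 (median -8.9 points). A 213 nt exon of Myo9a, encoding an unconventional myosin with a RhoGAP domain, changed by -40.1 points and a 131 nt exon of the kinesin light chain gene Klc1 by -27.6 points. Exons of chromatin and transcription genes fell in 25 of 67 cases and rose in 7 (median -6.5 points), among them a 104 nt exon of Pbrm1, encoding a subunit of the PBAF remodelling complex (-36.4 points), a 66 nt exon of E2f6, encoding a repressor of the E2F family (-32.0 points), and a 113 nt exon of Atrx, encoding a chromatin remodeller (-31.8 points).

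Of 21 exons in 12 genes of the cell cycle, DNA repair and p53 list, 13 fell and 1 rose (median -24.8 points). Exons of 68, 94 and 119 nt of the recombination gene Rad52 changed by -36.7, -34.5 and -33.8 points, and, being in 1 gene, are not separate observations. Rad52 exons of 102 and 76 nt also fell, by -32.9 and -28.4 points, so this gene weighs heavily in the count and the median of the list. A 78 nt exon of Rif1, which encodes a regulator of replication timing and double-strand break repair, changed by -33.1 points. Mitochondrial and metabolic genes held 14 exons, of which 5 fell and 2 rose (median -9.7 points). Mff, encoding the receptor for the fission GTPase on mitochondria, had a 60 nt exon at 5.3 and 5.7 in pEx5 knockdown libraries, against 35.5 and 33.6 in controls, and at 8.4 and 7.1 in mEx5 knockdown libraries, against 41.8 and 43.7 in controls (-32.0 points; limma adjusted p = 7.94e-10). Neuronal and synaptic genes held 45 exons, of which 9 fell and 4 rose (median -4.4 points). On induction, set against knockdown, 12 of the 42 exons of RNA processing factors rose and 2 fell, 16 and 5 of the 50 of cytoskeletal and traffic genes, 22 and 3 of the 67 of chromatin genes, 9 and 2 of the 21 of the cell cycle list, 6 and 2 of the 14 of mitochondrial genes and 12 and 4 of the 45 of neuronal genes. Over all 1859 exons 20.5% rose and 8.4% fell in this comparison, against a background of 8.88% and 2.59% of all events tested.

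Some deep exons moved little. A 57 nt exon of the alanyl-tRNA synthetase gene Aars, with 4254 to 7747 reads, was at 56.4 and 57.4 in pEx5 knockdown libraries, against 50.7 and 49.8 in controls, and at 52.1 and 50.5 in mEx5 knockdown libraries, against 46.0 and 44.0 in controls. Its change of 6.5 points passed the adjusted threshold (limma adjusted p = 0.00417) and not the 10-point size. A 147 nt exon of Hnrnpd, encoding the RNA-binding protein AUF1, changed by -4.3 points (limma adjusted p = 0.0393) and a 95 nt exon of the lactate transporter gene Slc16a3 by -9.2 points (limma adjusted p = 0.000324). At this depth changes of a few points were thus separated from the spread between duplicates without being called.

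The knockdown was the same experiment in both lines with separate libraries, and the calls overlapped widely. In the pEx5 line 551 exons fell and 169 rose (background 11.1% and 4.15%), and in the mEx5 line 480 fell and 126 rose (background 9.47% and 3.44%). Of these calls 516 were shared in the same direction, 71.7% of the 720 in pEx5 and 85.1% of the 606 in mEx5, and none was called in opposite directions. The test of the difference between lines called 0 exons and 0% of all events (weighted limma; 131 exons had an unadjusted p under 0.05). Without overlap between knockdown and control libraries in either line were 753 of the 1859 exons that were lower and 262 that were higher. Over the 22770 events tested these counts were 4925 and 3128 (21.6% and 13.7%), so the share of exons that were higher was close to the background. In controls the lines differed by a median of 4.1 points over the exons, and by at least 10 points in 309 of them.

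**Figure D3:**
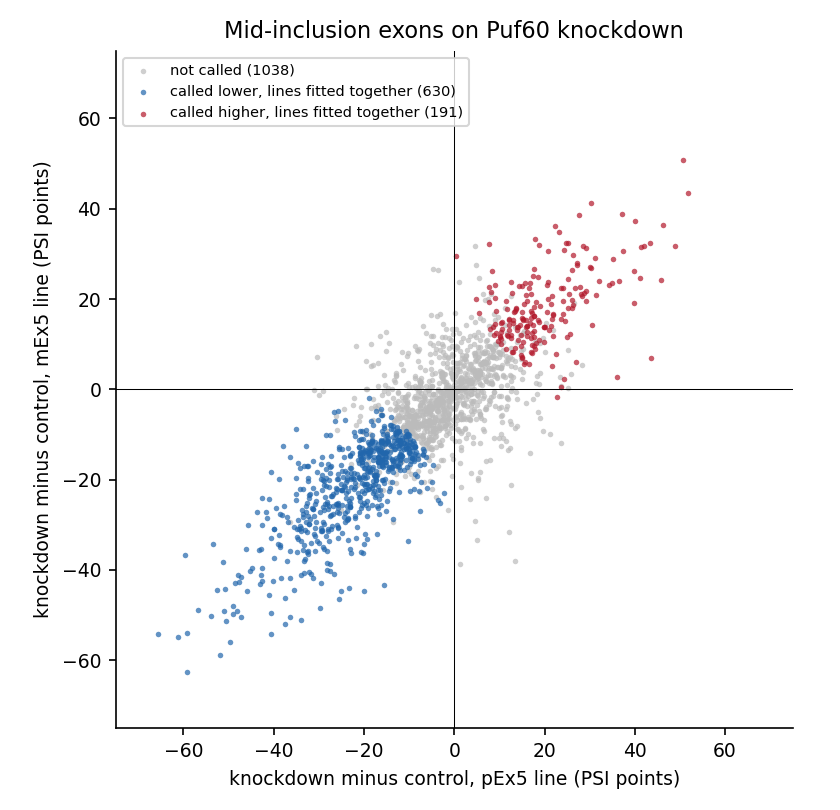
Difference of PSI in points, knockdown minus control, in the pEx5 line (horizontal axis) and the mEx5 line (vertical axis), with 1 point per exon for all 1859 exons. Blue points are the 630 exons called lower and red points the 191 called higher with both lines fitted together, and most called points lie near the diagonal.

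The direction of change went with where an exon started and with its surroundings. Of exons that started at 20 to under 40, 138 fell and 54 rose, of those at 40 to 60, 166 fell and 61 rose, and of those over 60 to 80, 326 fell and 76 rose. Losses thus outnumbered gains at each starting level in this range, including the lowest, where room for a fall is smallest. Exons of the same length just outside gave other counts: at over 5 to under 20, 39 fell and 58 rose among 963 tested, and at over 80 to 95, 697 fell and 31 rose among 2828 tested. These counts are not a like comparison. A test needed a mean PSI of 5 to 95 over all 12 libraries, knockdown included, which left 963 of 1115 and 2828 of 3134 exons. Low starts also leave little or no room for a called fall, and high starts for a called rise. The exons nearest to the limits were a 54 nt exon of Opa1 at 20.01 and, outside, a 75 nt exon of Erc2 at 19.95, and a 60 nt exon of Clcn2 at 79.99 and, outside, a 168 nt exon of Polr3gl at 80.02. Their knockdown changes were -6.2, 2.3, -6.4 and -55.0 points.

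Flanking introns, measured to the neighbouring exons of the event, were longer at the exons that were lost. Such a length can span other alternative exons and so more than 1 intron. Events that vast-tools classes as simple were 309 of the 630 exons called lower, 126 of the 191 called higher and 552 of the 1038 not called. The part of this in the lengths was not tested. The median upstream intron was 3314.5 nt at exons called lower, 628 nt at exons called higher and 1867.5 nt at exons not called, and the downstream medians were 2936.5, 804 and 2219.5 nt. Among the 318 exons with both introns under 1000 nt, 62 fell and 78 rose. Among the 675 with both introns of at least 1000 nt and 1 of at least 5000 nt, 288 fell and 32 rose. The share called higher was thus 24.5% in the first class and 4.7% in the second, and the share called lower 19.5% and 42.7%. Mostly included exons, at over 80 to 95, had a share called lower of 9.0% with short introns and 30.4% with long ones. Their share called higher was 3.4% and 0.1%, at a starting level that leaves little or no room for a called gain. The intron classes were set with results known, and no test was made of them.

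**Figure D4:**
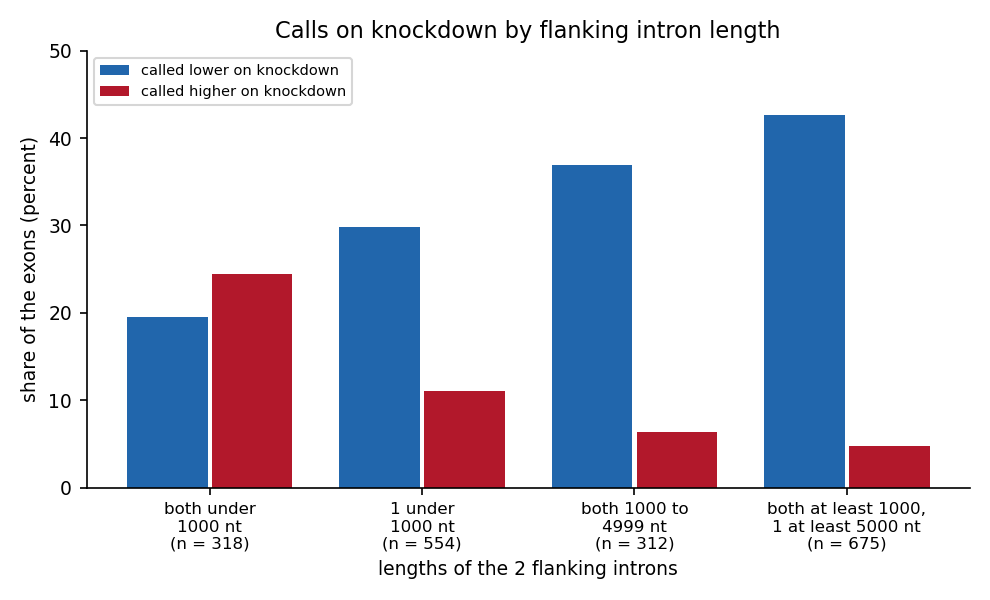
Share of exons in percent (vertical axis) called lower (blue) and higher (red) on knockdown in 4 classes of flanking intron length, with the number of exons below each class. The share called lower goes up from 19.5% to 42.7% and the share called higher goes down from 24.5% to 4.7% between the shortest and the longest class.

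Base composition differed as well. Among exons with a matched sequence, the median GC content was 49.0% in 560 exons called lower, 55.5% in 160 called higher and 52.5% in 895 not called. Within the class with both introns under 1000 nt the medians were 51.4% (lower) and 57.1% (higher), and within the longest class 48.0% (lower) and 45.7% (higher, 21 exons), an order of GC content opposite to that of the shortest class. Exons called lower had a median length of 96 nt, those called higher 120 nt and those not called 112 nt. A G at the first base was found in 35% of exons called lower, 44.4% of those called higher and 44.2% of those not called. The last base was G in 78.9%, 81.9% and 79.7%, which hardly differed.

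Most of the exons lay in coding sequence. Of the 1615 matched exons, 1103 were coding throughout, 143 in part, 206 lay in a 5′ UTR, 66 only in transcripts annotated for nonsense-mediated decay and 97 only in noncoding transcripts. Exons whose length is a multiple of 3, which can be skipped without a frame shift, made up 54.1% of those called lower, 53.9% of those called higher and 44.0% of those not called. Among coding exons alone the shares were 63.6%, 56.5% and 50.7%.

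Introns next to the exons moved opposite to the exons. Of the 96 retained-intron events tested just upstream of exons called lower, 25 had a higher PSI on knockdown and 0 a lower one, and of the 104 just downstream 29 were higher and 0 lower (weighted limma; at an unadjusted p under 0.05, 0 were lower on either side). Next to exons called higher, 0 of 56 upstream and 0 of 59 downstream introns were higher, and 8 and 9 were lower (at an unadjusted p under 0.05, 1 and 3 were higher). The background over the 8863 introns tested was 6.79% higher and 1.99% lower. The PSI of an intron is set against junction reads that include the exon beside it, so the values of an exon and of its intron are not independent.

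The share of genes lower in expression was larger among host genes of the exons than among genes at large, whether or not the exon was called, and this difference was not tested. Counting genes with the same sign and an adjusted p under 0.05 in both lines in the authors' deposited table, 168 of 472 genes with an exon called lower fell on knockdown and 44 rose. Of 167 genes with an exon called higher 34 fell and 35 rose, of 800 with an exon not called 204 fell and 102 rose, and of all 18600 genes with a fold change 2550 fell and 1870 rose. These are 35.6%, 20.4%, 25.5% and 13.7% of the genes lower, and a gene with exons of more than 1 class counts in each. The share higher was 12.7% of all host genes against 10.1% of genes at large, and 9.3% for genes with an exon called lower. Host genes were chosen for reads in every library and the genes at large were not, so the shares are not matched for expression or for power to reach the threshold. The genes of named exons differed among themselves. In the authors' deposited table Snap91 changed by -0.76 and -0.75 (log2, pEx5 and mEx5), Pcm1 by -0.73 and -0.64, Smpd4 by 0.24 and 0.18 and Eif4h by -0.05 and -0.04.

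Induction of Puf60 was set against knockdown to see which exons moved again when the cDNA was induced with doxycycline. The PSI of these libraries took no part in choosing the exons, although their read depth did. With both lines together 381 exons rose and 156 fell (background 8.88% and 2.59%), with a median change of 2.49 points against 1.14 over all events tested. In the pEx5 line 254 rose and 87 fell (background 5.87% and 1.41%), and in the mEx5 line 328 rose and 143 fell (background 7.95% and 2.45%). Without induction library B of the pEx5 line the counts there were 167 and 52, and 53 fell without its knockdown library B. Without knockdown library A of the mEx5 line the counts were 208 and 94, and 92 fell without its induction library A. Calls of the single lines were shared in the same direction for 216 exons, 63.3% of the 341 in pEx5 and 45.9% of the 471 in mEx5, and were opposite for 1.

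The largest gains on induction were in exons named above. The exon of 5730419I09Rik was at 67.3 and 54.1 in pEx5 induction libraries, against 10.0 and 14.0 in knockdown, and at 59.9 and 69.3 in mEx5 induction libraries, against 14.4 and 16.7 in knockdown (48.9 points; limma adjusted p = 1.95e-05). Those of Fnip2, Smpd4, 8030474K03Rik and Snap91 changed by 44.6, 43.7, 43.2 and 42.7 points. All 5 thereby lay closer to the controls than to the knockdown libraries, but they were chosen for their gain on induction and do not stand for the other exons. The largest losses were in Ccdc136, whose 159 nt exon was at 48.9 and 59.2 in pEx5 induction libraries, against 92.5 and 91.1 in knockdown, and at 25.2 and 11.4 in mEx5 induction libraries, against 63.1 and 84.7 in knockdown (-46.7 points; limma adjusted p = 4.51e-05). Its 171 and 195 nt exons changed by -36.3 and -32.5 points, the Ogdh 91 nt exon by -37.7 points and the Kctd17 exon by -32.9 points.

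In the libraries, the exons called lower on knockdown had a median PSI of 48.7 and 47.8 in pEx5 induction, 34.6 and 34.4 in knockdown and 60.7 and 61.7 in control. In the mEx5 line the medians were 52.3 and 53.1 in induction, 34.3 and 34.7 in knockdown and 59.5 and 60.6 in control. Those called higher had 61.3 and 63.9 in pEx5 induction, 76.1 and 75.6 in knockdown and 53.8 and 53.7 in control, and in the mEx5 line 51.8 and 52.5, 71.0 and 71.7, and 52.4 and 51.8. The induction medians thus lay between knockdown and control, except for exons called higher in the mEx5 line, where induction and control medians overlapped. The classes come from the test of knockdown against control, so the medians of those groups are a description, and the fit behind that test takes its spread from all 12 libraries.

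**Figure D5:**
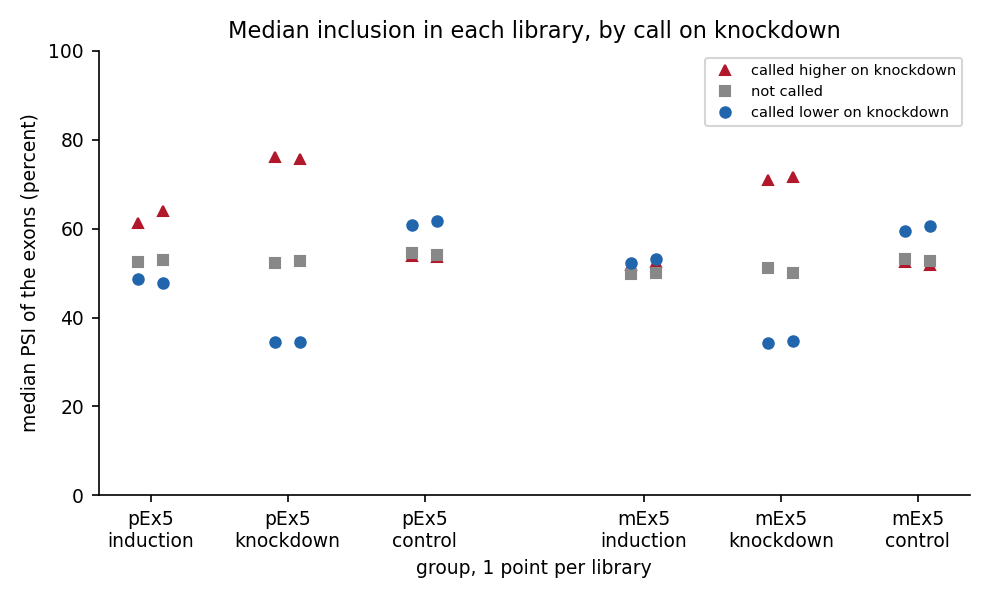
Median PSI in percent (vertical axis) of the exons called higher (triangles), not called (squares) and called lower (circles) on knockdown, with 1 point per library and the groups induction, knockdown and control of each line from left to right. Induction points of the exons called lower lie at 47.8 to 53.1, knockdown points at 34.3 to 34.7 and control points at 59.5 to 61.7.

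Induction was also set against control, to see which exons differed from control after induction. With both lines together 26 exons were higher and 169 lower (background 1.51% and 1.68%), and the median change was -2.86 points, against 0.36 over all events tested. Of the 169 lower exons, 148 were also called lower on knockdown, 20 were not called there and 1 was called higher. Of the 26 higher exons, 16 were also called higher on knockdown, 9 were not called there and 1 was called lower. A call with both lines together can rest on 1 line. The Tmpo exon (-14.2 points) had a mean of 15.5 in pEx5 induction against 44.1 in control, and 40.3 against 40.1 in mEx5. This comparison shares its control libraries with the knockdown comparison and with the choice of the exons. Mtap4 was at 48.3 and 48.2 in pEx5 induction libraries, against 74.0 and 71.4 in controls, and at 47.8 and 42.5 in mEx5 induction libraries, against 77.7 and 80.0 in controls (-29.0 points). Smpd4 and Ubn1 remained lower by a change of -14.2 and -13.6 points. Of the other named exons, chosen here after their values were seen, the Uspl1 exon changed by -6.0 points on induction, under the size needed for a call, and lay 31.9 points above control, and the Klc1 exon changed by 4.5 points on induction and remained at -23.0 points against control.

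Each cDNA was in 1 line only, so effects of the cDNAs cannot be told apart from other differences between the lines. The difference of induction between lines was tested, and 12 of the 1859 exons (0.6%) were called, against a background of 0.272% of all events. At an unadjusted p under 0.05 (weighted limma) there were 293 exons, so an exon without a call is not shown to respond alike in both lines. Of these 5 were higher and 7 lower, and the counts rest on each library: leaving out 1 of the knockdown or induction libraries gave 1 to 2 higher and 1 to 4 lower, with 1 and 1 without knockdown library A of pEx5. The exon of Puf60 that the cDNAs differ in was the largest, at 88.0 and 89.4 in pEx5 induction libraries, against 6.1 and 7.3 in mEx5 induction libraries, a difference of induction of 84.9 points (limma adjusted p = 1.02e-08). That exon is present in 1 cDNA and absent from the other, so this call, among the 5 higher, was fixed by the constructs. A 117 nt exon of Pcm1, encoding the scaffold of centriolar satellites (chr8:41261360-41261476), was at 39.5 and 38.8 in pEx5 induction libraries, against 74.8 and 73.7 in mEx5 induction libraries, and its knockdown values were 71.0 and 72.6 in pEx5 and 67.3 and 68.2 in mEx5 (-39.2 points; limma adjusted p = 6.8e-05). The exon thus fell on induction in the pEx5 line, to below its controls of 57.2 and 55.7.

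A 295 nt exon of Pstk, encoding a kinase that acts on the selenocysteine tRNA (chr7:131373536-131373830), was at 17.0 and 13.1 in pEx5 induction libraries, against 51.7 and 55.6 in mEx5 induction libraries (-38.3 points; limma adjusted p = 0.0321). Zc3h11a, encoding a zinc finger protein of mRNA export, had a 54 nt exon of its 5′ UTR (chr1:133655345-133655398) at 21.9 and 19.0 in pEx5 induction libraries, against 47.3 and 51.1 in mEx5 induction libraries (-28.0 points; limma adjusted p = 0.00977). In pEx5 knockdown libraries the Pstk exon was at 7.4 and 5.9 and the Zc3h11a exon at 23.3 and 21.8, so that for both exons the pEx5 induction libraries lay nearer to knockdown than the mEx5 induction libraries did. Exons of Fam193b (184 nt, 44.0 points; limma adjusted p = 0.0457) and Ydjc (178 nt, 28.4 points; limma adjusted p = 0.0442) went the other way, with a higher PSI in the pEx5 induction libraries, but each lost the call in 17 of the 22 alternative settings. The Pstk exon lost it in 12 of these settings and the Zc3h11a exon in 6. The level of total Puf60 also differed between the induced lines, at 246.09 RPKM in pEx5 and 202.07 RPKM in mEx5 in the authors' deposited table, and its part in these differences was not tested.

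The authors' deposited table held their own True or False call for each exon, with no stated criterion. It marked as True 917 of the exons (49.3%) in the knockdown of the pEx5 line and 785 (42.2%) in that of the mEx5 line, against 28.4% and 24.6% of the events tested here that carry such a call in the authors' deposited table. On induction the table marked 573 (30.8%) in pEx5 and 672 (36.1%) in mEx5, against 17.9% and 21.3% of those events. Between the induced lines it marked 465 exons (25%, against 11.8%), between the knockdown lines 195 (10.5%, against 5.39%) and between the control lines 188 (10.1%, against 3.93%).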

How the data were processed

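The authors' deposited splicing table, made with vast-tools per its event identifiers, gave PSI in percent for each event and library, and its quality text held the inclusion and exclusion reads, corrected by the authors' tool. A further deposited table gave a group PSI score and the authors' True or False calls. The deposited expression table gave the authors' RPKM per group, log2 fold changes, p-values and adjusted p-values, with Salmon 0.14.1, edgeR and mm10 named in the submitters' processing notes. The assembly of the splicing coordinates is not given in the sources used here, so exon positions are those of the matched GENCODE vM21 (GRCm38) exons. For libraries with doxycycline the sample description and the treatment field disagree on induction, and the groups follow the treatment field.

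Inclusion was tested on the logit scale with limma 3.58.1 (R 4.3.3; pseudocount 0.5 reads; precision weights from reads with a variance floor of 0.01), with 1 coefficient per group in all 12 libraries, over the 22770 events with at least 10 reads in every library and a mean PSI of 5 to 95. P-values were adjusted by Benjamini-Hochberg over all of them, and a call needed an adjusted p under 0.05 and a difference of at least 10 points. The script was tested on simulated data. Exon sequences were read from GENCODE transcripts. A few genes and sequences that the rules select are not reported here. The members, the gene lists and the naming rule were chosen with earlier results of these data known. Named exons had at least 20 reads in every library: the 10 largest gains and losses on knockdown without overlap, the 5 largest on induction, 6 with the largest difference of induction between lines, 3 still changed against control, 3 deep exons not called with control PSI of 45 to 55, and up to 4 per gene list. The exons of the pairs were named by structure after their values were seen. The replicate letters were not used to pair libraries. Alternatives changed weights, pseudocount, variance floor, scale, PSI range, event set, read minimum, size of change, replicate block, groups fitted and each library in turn. Read depth limits precision, and reads are not independent molecules.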

Additional observations from a re-analysis of the deposited data

Results flagged for a closer look

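Among the exons, 12 differed in their response to induction between the lines, by a test of the difference itself (induction against knockdown in pEx5 minus the same in mEx5; weighted limma). The values, in points, were 84.9 for Puf60, 44.0 for Fam193b, 28.4 for Ydjc, 24.8 for Ivns1abp and 17.2 for P4ha1, which were positive, and -39.2 for Pcm1, -38.3 for Pstk, -28.0 for Zc3h11a, -27.3 for Trnau1ap, -24.8 for Tmpo, -20.2 for Ifi27l1 and -19.1 for Ezh2. The exons of Fam193b and Ydjc lost the call in 17 of the 22 alternatives and that of Ezh2 in 14, while Pcm1 kept it in all except the fit without weights. The Puf60 exon kept it in all 22, but it is the exon in which the cDNAs differ, so its call was fixed by the constructs. The Tmpo exon (120 nt), in a gene of the nuclear lamina, was at 17.8 and 13.2 in pEx5 induction libraries, against 42.1 and 38.4 in mEx5 induction libraries. The exon of Trnau1ap (100 nt), which encodes a selenocysteine tRNA-associated protein, was at 50.5 and 58.4 in pEx5 induction libraries, against 74.7 and 79.2 in mEx5 induction libraries. The P4ha1 exon, the 5′ one of its pair, was at 42.0 and 42.5 in pEx5 induction libraries, against 23.2 and 23.1 in mEx5 induction libraries. Groups of 2 libraries were too small for the check of single outlying libraries.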

How the results depend on the processing

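With both lines together, knockdown calls stayed within 1.5 times the count under every setting of the fit, except that 124 exons were higher at a size of 15 points, and leaving out each library gave 586 to 627 lower and 175 to 197 higher. At 15 points 246 exons rose and 90 fell on induction. Without precision weights the counts were 107 higher on knockdown in pEx5, 80 in mEx5, 130 higher and 36 lower on induction in pEx5, 84 lower on induction in mEx5, and 12 higher and 88 lower for induction against control. With no PSI range they were 75 higher on knockdown in mEx5, 51 and 80 lower on induction in pEx5 and mEx5, and 9 higher and 98 lower against control. At 15 points they were 57 lower on induction in pEx5, and 10 higher and 82 lower against control. The difference of induction between lines depended most on the setting: higher and lower counts were 1 and 0 without weights, 1 and 1 with a variance floor of 0.05, 3 and 2 with no PSI range, and 3 higher on the PSI scale, 3 with exons only and 2 with only the groups compared. The higher counts of this difference include the Puf60 exon, in which the cDNAs differ. Leaving out each library gave 1 to 4 higher and 1 to 8 lower there, 167 to 260 and 52 to 94 on induction in pEx5, and 208 to 336 and 92 to 145 in mEx5. The cause was not tested. Counts chosen after seeing the data, with 1 exon per gene, were 447 lower and 151 higher of 1406 on knockdown, and with simple events only they were 309 and 126 of 987 on knockdown and 102 lower and 207 higher on induction, fewer exons being counted. Over named and paired exons, 1927 of 2046 alternative values kept the call and 119 lost it, with 0 reversals.

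No clear pairing of libraries by the letters A and B was seen: correlations of deviations between same-lettered libraries were -0.049 to 0.126 over 15 pairs of groups. The deviations also hold the sampling of reads, which can hide a pairing, so pairing is not excluded. With the replicate block, knockdown called 624 lower and 193 higher and the difference of induction 3 higher, in place of 5.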
